A study of Mus musculus with 12 samples.

Results

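The genes described here encode 10 neuropeptide precursors, Npy, Cck, Penk, Pdyn, Tac1, Tac2, Crh, Cort, Nts, and Adcyap1, and were chosen by name from 20886 mouse genes that the probes of a one-colour Agilent microarray could be matched to. Each was read by 1 probe with 1 spot. There were 12 arrays, 1 for each animal model, and each held RNA pooled from 3 mice. Prefrontal cortex came from C57BL/6 males aged 1.5, 4, 17, and 22 months. Hippocampus came from 3 transgenic lines labelled C57BL/6. These were NCSTN (mutated human NCSTN, a subunit of the γ-secretase that releases amyloid-β, 10 months), MAPT (wild-type human MAPT, which encodes tau, 12 months), and 5xFAD (a transgenic model of amyloid deposition, 6 months). The promoters that drive the transgenes were not looked up here. The other hippocampi came from ICR males bought at 7 weeks. They received amyloid-β (Aβ) at 5 or 10 µM or streptozotocin, a toxin that disturbs insulin signalling, at 2.5 or 3 mg/kg into the cerebral ventricle 14 days before tissue collection, or scopolamine, a blocker of muscarinic acetylcholine receptors, at 1 mg/kg into the peritoneum 30 min before it. All mice were fasted overnight. The cortex arrays came from mice with no transgene or treatment in their labels. Hippocampus arrays of untreated or wild-type mice were not analysed here, so a hippocampal model was compared with other models of its strain.

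A neuropeptide is made as a long precursor that enters the secretory pathway, is cut by prohormone convertases, trimmed by carboxypeptidase E, often amidated, and stored in dense-core granules until strong firing releases it. In the cortex and hippocampus, Npy, Tac1, Cort, and Crh are made mainly by subsets of GABAergic interneurons, while Cck is made by interneurons and many pyramidal cells. Penk, Pdyn, Adcyap1, and Tac2 are better known from other cells as well: Penk, Pdyn, and Tac1 from striatal projection neurons, Pdyn and Penk also from the dentate gyrus and its inputs, Adcyap1 from excitatory neurons, and Tac2 from the medial habenula. Somatostatin (Sst) and VIP mark further interneuron classes and serve below as companions of the 10 genes.

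Values are log2 of the processed signal after quantile normalization. A gene counted as measured in a group of arrays when the scanner software marked it well above background on all of them. With 1 array a model there are no replicates. No test was run, since the arrays that a comparison averages are different models, ages, or doses, and the only error given is that of the spot, 0.14 on the log2 scale for a measured precursor (0.21 at most, for Nts in the cortex) and 0.19 for a difference between single arrays, which leaves out the spread between animals. A gene was called different at 2-fold or more, the criterion of the study. In pooled tissue, fewer cells of a type and less RNA per cell cannot be told apart. Between 63.5% and 75.9% of probes were well above background on each array, and no spot was saturated. Xist, transcribed from the inactive X of female cells, read 9.19, 9.44, and 9.59 on the NCSTN, MAPT, and 5xFAD arrays and was not well above background on the other 9, while the Y-linked genes Ddx3y and Eif2s3y were not well above background on these 3 arrays. This goes against the male sex that the methods state for all 3 lines. The whole transgenic set showed it, so no comparison within that set could be run without those arrays.

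**Figure D1:**
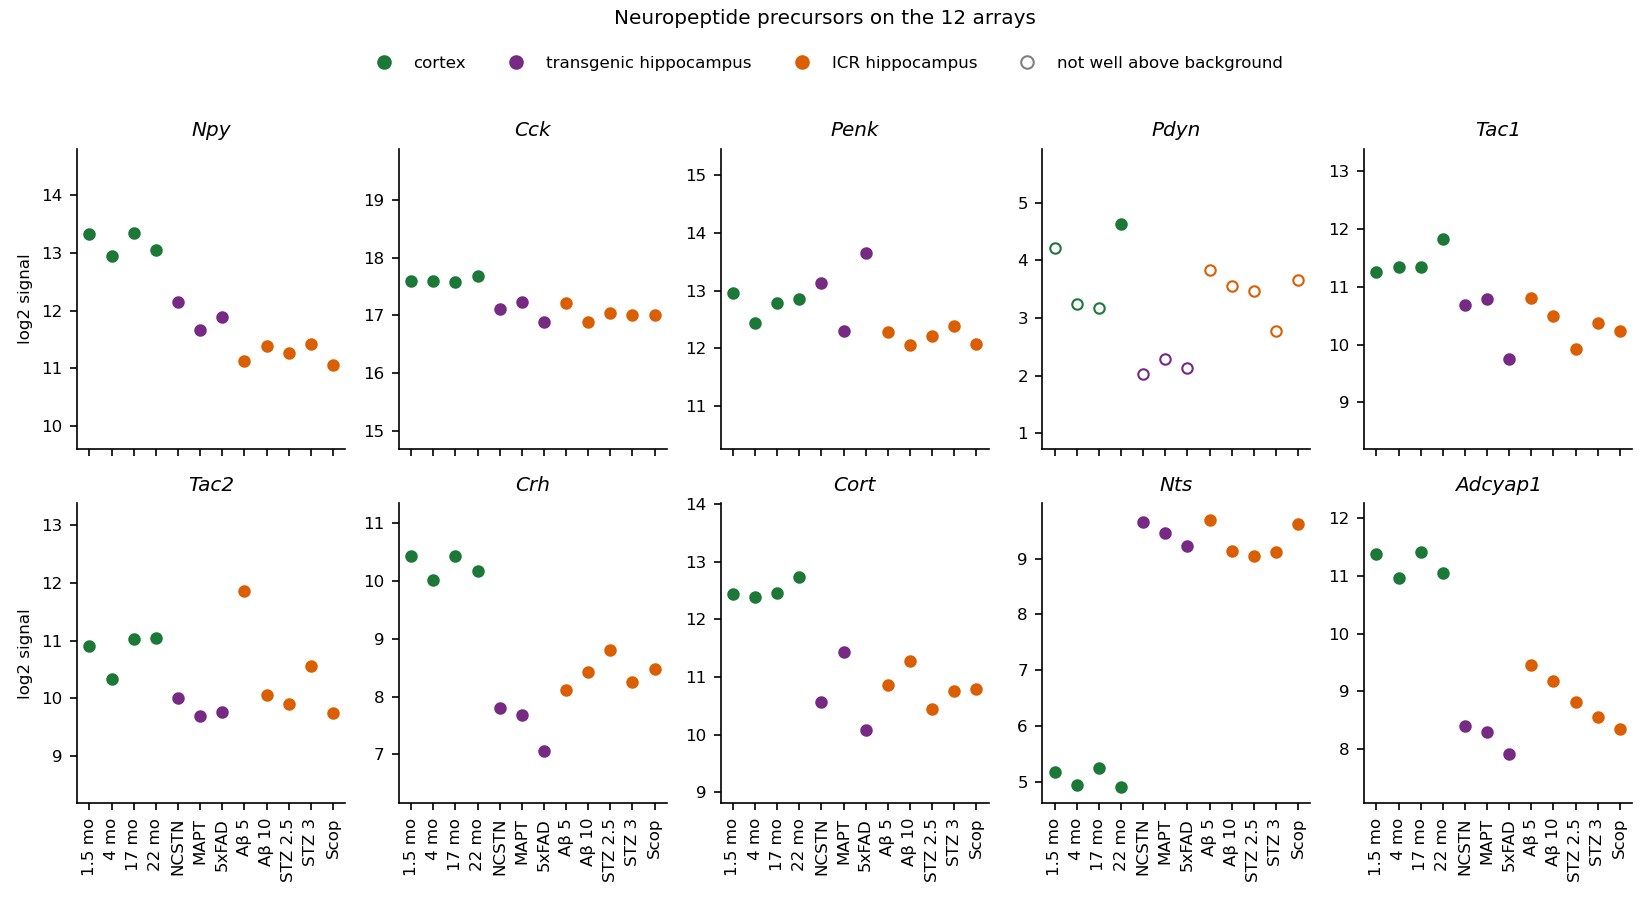
Log2 signal (y axis) of each precursor on the 12 arrays (x axis), coloured by tissue and strain, 1 point an array. Filled points were well above background and open points were not. Each panel has its own level and a span of at least 5.2 log2 units, and Nts is the only gene lower on every cortex array than on every hippocampus array.

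The precursors differed most between the prefrontal cortex and the hippocampus. Of the 9 measured precursors, 6 were at least 2-fold apart with no overlap between the 4 cortex and the 8 hippocampus arrays, against 5.37% of the 14031 genes well above background on all 12 arrays. Higher in the cortex were 5 of them, and Nts was higher in the hippocampus. With the transgenic arrays left out, the same 6 were called against the ICR hippocampus alone, where 8.08% of measured genes were. This comparison was chosen after the data had been seen. Region cannot be told apart from strain, age, genotype, and injection, which differ between the sets as well.

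Adcyap1, the precursor of PACAP, a peptide that raises cyclic AMP in its target neurons, read 11.38, 10.97, 11.41, and 11.04 in the cortex at 1.5, 4, 17, and 22 months. In the hippocampus it read 8.41, 8.30, and 7.91 on the NCSTN, MAPT, and 5xFAD arrays, and 9.46, 9.17, 8.82, 8.56, and 8.35 on the Aβ 5 µM, Aβ 10 µM, streptozotocin 2.5 mg/kg, streptozotocin 3 mg/kg, and scopolamine arrays. The lowest cortex array was above the highest hippocampus array, and the means differed 5.98-fold.

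Crh encodes corticotropin-releasing hormone, the peptide that starts the hormonal stress response and that cortical and hippocampal interneurons also release. It read 10.44, 10.01, 10.44, and 10.17 in the cortex in order of age, 7.80, 7.67, and 7.06 on the NCSTN, MAPT, and 5xFAD arrays, and 8.12, 8.43, 8.81, 8.26, and 8.47 on the ICR arrays in the order given above. The cortex was 4.56-fold higher. Within the hippocampus the transgenic arrays (mean of 7.51) lay below all 5 ICR arrays (mean of 8.42).

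Cort encodes cortistatin, a peptide close to somatostatin that binds the same receptors. Its signal was 12.44, 12.39, 12.47, and 12.74 in the cortex, 10.58, 11.43, and 10.08 in the transgenic hippocampus, and 10.87, 11.28, 10.45, 10.75, and 10.80 in the ICR hippocampus. The cortex was 3.31-fold higher. Npy, neuropeptide Y, an inhibitor of glutamate release, was 3.20-fold higher in the cortex, at 13.33, 12.95, 13.35, and 13.06, than in the transgenic hippocampus, at 12.15, 11.67, and 11.90, and the ICR hippocampus, at 11.13, 11.38, 11.26, 11.42, and 11.05. The transgenic and ICR hippocampus did not overlap for Npy.

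Tac1, which encodes substance P and neurokinin A, was the smallest of these differences at 2.09-fold. It read 11.25, 11.33, 11.34, and 11.84 in the cortex, 10.68, 10.79, and 9.74 in the transgenic hippocampus, and 10.80, 10.50, 9.91, 10.37, and 10.24 in the ICR hippocampus. Without the 22-month cortex, the 5xFAD, or the streptozotocin 2.5 mg/kg array it fell short of 2-fold and 5 precursors were called.

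Nts, which encodes neurotensin, a modulator of dopamine circuits that the subiculum and CA1 make in quantity, was the only precursor called in the other direction. The hippocampus arrays read 9.66, 9.46, and 9.22 (NCSTN, MAPT, 5xFAD) and 9.69, 9.14, 9.04, 9.11, and 9.62 (ICR), while the cortex arrays read 5.17, 4.94, 5.25, and 4.91. The difference was 19.7-fold in the means. Nts was near the background in the cortex, at 2.84 times the local background on its dimmest array, so the fold rests on a dim probe there.

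The other 3 measured precursors were less than 2-fold apart. Cck, cholecystokinin, was 1.48-fold higher in the cortex without overlap, between 17.57 and 17.69 against 16.88 and 17.24. Tac2, the precursor of neurokinin B, ranged from 10.33 to 11.04 in the cortex and from 9.71 to 11.86 in the hippocampus. Penk, the precursor of the enkephalins, ranged from 12.44 to 12.95 and from 12.06 to 13.65. Both overlapped. The cortical excitatory neuron markers were on the side of the tissue labels: the summed signal of 9 such genes was between 13.54 and 13.87 on the cortex arrays and between 12.24 and 13.26 on the hippocampus arrays.

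**Figure D2:**
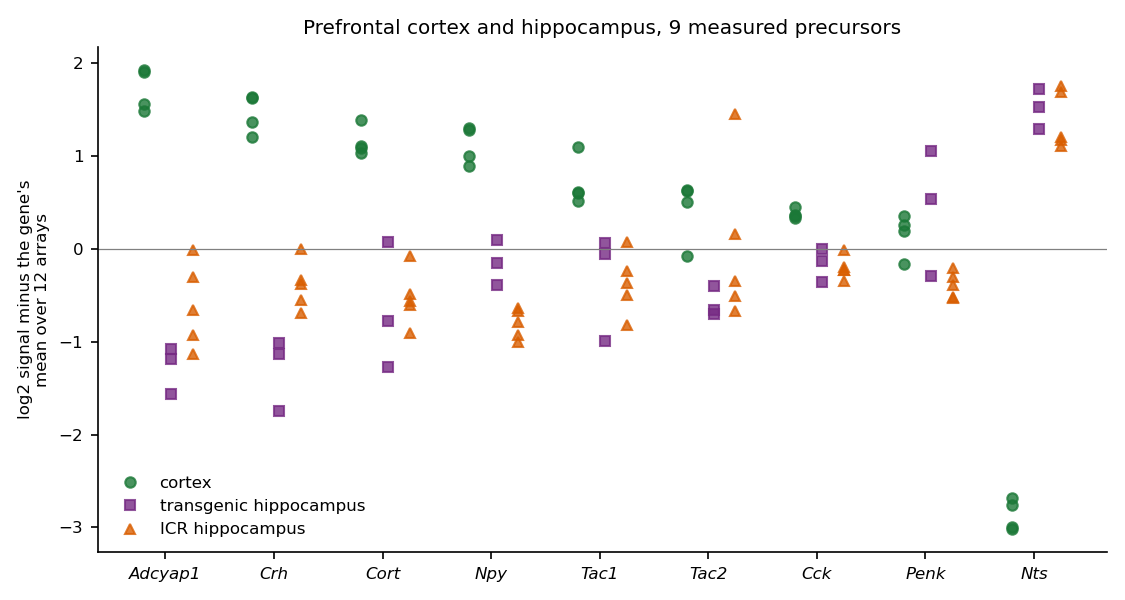
Log2 signal of 9 precursors minus the gene's mean over the 12 arrays (y axis), by gene (x axis), with 1 point an array for cortex (circles), transgenic hippocampus (squares), and ICR hippocampus (triangles). The genes are ordered by the difference between cortex and hippocampus, from Adcyap1 at 5.98-fold to Nts, 19.7-fold higher in the hippocampus.

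Pdyn, the precursor of the dynorphins, ligands of the κ-opioid receptor, stayed outside these counts. It was well above background only on the array of the 22-month cortex, at 4.63. On the cortex arrays at 1.5, 4, and 17 months it read 4.22, 3.25, and 3.18, each not well above background. The 22-month cortex was 1.35-fold higher than the mean of the others, where a dim array counts as the dimmest probe well above background on it or as its own signal if that is higher. This is not a firm lower bound. The gap to the 1.5-month array was 0.41, with spot errors of 0.27 at 22 months and 0.34 at 1.5 months. At 4 and 17 months the spot errors were 0.54 and 0.57. On the 8 hippocampus arrays Pdyn was between 2.03 and 3.83 and never well above background. Dentate granule cells are a known source of Pdyn, and 9 of 10 markers of these cells were measured in the transgenic and 9 of 10 in the ICR hippocampus. Whether this probe detects Pdyn was not tested.

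Across the ages of the prefrontal cortex the precursors were close to level. Of the 9 measured, 0 reached 2-fold between the highest and the lowest array, against 6.22% of the 14749 genes well above background on all 4 arrays and 14.8% of all 20886 genes. Their median range was 0.43 on the log2 scale, and that of the measured genes 0.37. Cck varied least, with a range of 0.11, which was below the error of the spots. Tac2 had the widest range at 0.71, or 1.64-fold, followed by Tac1 at 0.59.

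Both ages above 1 year were then set against the ages of 1.5 and 4 months. None of the precursors differed 2-fold, and 0.515% of measured and 3.85% of all genes did. All 9 differences were above 0, with a median of 0.08 against 0.02 for measured genes, but 5 of them (Npy, Penk, Crh, Nts, and Adcyap1) were below 0 without the 4-month array and 4 without the 17-month array. Those of Npy, Cck, Penk, Crh, Nts, and Adcyap1 were at most 0.13, and both groups overlapped. Tac2 read 10.91 and 10.33 at 1.5 and 4 months and 11.03 and 11.04 at 17 and 22 months, a difference of 0.42. Without the 4-month array the difference of Tac2 was 0.13. Tac1 differed by 0.30 and Cort by 0.19, and both lay highest at 22 months, without which each differed by 0.05. These 3 genes were the ones without overlap, 3 of 9, and 35.9% of measured genes did not overlap either, so the share was near that of genes at large.

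The 4-month array was the lowest for Npy, Penk, Tac2, Crh, Cort, and Adcyap1, and without it the ranges of Penk and Tac2 were 0.17 and 0.13. Markers of other tissue moved between these arrays as well. The summed signal of 10 oligodendrocyte genes was 16.18, 17.09, 16.09, and 16.69 in order of age. The dopamine receptor Drd2 of striatal projection neurons read 3.16 (not well above background), 6.94, 4.23, and 5.83, and Drd1 7.42, 8.49, 7.75, and 8.61, so that both were highest at 4 and 22 months. Of the 11 striatal markers, 9, 10, 11, and 11 were well above background. Their summed signal was 13.75, 14.05, 14.22, and 14.22 in order of age, so the sum was not lower at 17 than at 4 months. The mean of their log2 signals was 7.75, 8.40, 8.13, and 8.58. Tac1, Penk, and Pdyn are striatal peptides too. Choroid plexus markers summed to 15.64 at 17 months and to between 9.03 and 9.44 at the other ages. The part of any of these in the precursor values was not tested.

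The transgenic hippocampi differed in 3 of the 9 measured precursors, Cort, Penk, and Tac1, each at least 2-fold between the highest and the lowest array. The background was 13.7% of the 15595 measured genes and 16.1% of all genes. In each the 5xFAD array stood at one end and the MAPT array at the other. Some markers of neighbouring tissue also differed between these arrays. The summed signal of 9 pituitary genes was 12.52 on the MAPT array, with 5 of them well above background, against 9.03 on the NCSTN and 9.05 on the 5xFAD array, with 2 and 3. That of 11 hypothalamic genes was 11.01 on the NCSTN array against 9.44 on the MAPT and 8.86 on the 5xFAD array. Trh weighs most in this sum, at 10.72, 6.18, and 6.76 on the NCSTN, MAPT, and 5xFAD arrays. The other genes did not share 1 order: Avp and Oxt were highest on the MAPT array, at 7.74 and 8.12. Pmch and Agrp were highest on the NCSTN array, and Hcrt on the 5xFAD array. The part of either tissue in the precursor values was not tested. The median range of the precursors was 0.49, and that of measured genes 0.43.

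Penk was the only precursor highest on the 5xFAD array. It read 13.13 on the NCSTN, 12.30 on the MAPT, and 13.65 on the 5xFAD array, 2.54-fold between the last pair. Enkephalins act on δ- and µ-opioid receptors, and in the hippocampus Penk is made by interneurons, by granule cells after strong activity, and by entorhinal inputs. Of these receptors' genes, Oprd1 read 6.47, 5.75, and 5.56 and Oprm1 9.41, 9.43, and 9.19.

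Tac1 and Cort were lowest on the 5xFAD array. Tac1 read 10.68, 10.79, and 9.74, so that the NCSTN and MAPT arrays were within 0.11 of each other and 5xFAD stood 2.07-fold below the MAPT array. Cort read 10.58, 11.43, and 10.08, and here all 3 arrays differed, 2.55-fold between MAPT and 5xFAD. Without the MAPT array, or without the 5xFAD array, 0 precursors reached 2-fold, and without the NCSTN array 3 did.

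When 5xFAD was set against the mean of NCSTN and MAPT, 8 of the 9 differences were below 0, with a median of -0.33 against -0.06 for measured genes. None reached 2-fold, while 9.43% of measured and 10.3% of all genes did. The nearest were Tac1, 1.996-fold lower, Penk at 0.93, and Cort at -0.92, with a spot error of 0.17 each. Crh differed by -0.67, Adcyap1 by -0.44, Nts by -0.33, and Cck by -0.29, and these also lay outside the span of the other 2 arrays, as 7 of 9 precursors and 86.9% of measured genes did. Npy and Tac2, at -0.01 and -0.10, lay within it. Against the MAPT array alone, Cort, Penk, and Tac1 were all past 2-fold, and against the NCSTN array alone the differences were -0.49, 0.52, and -0.94. Model cannot be told apart from age here, since the mice were 6, 10, and 12 months old.

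**Figure D3:**
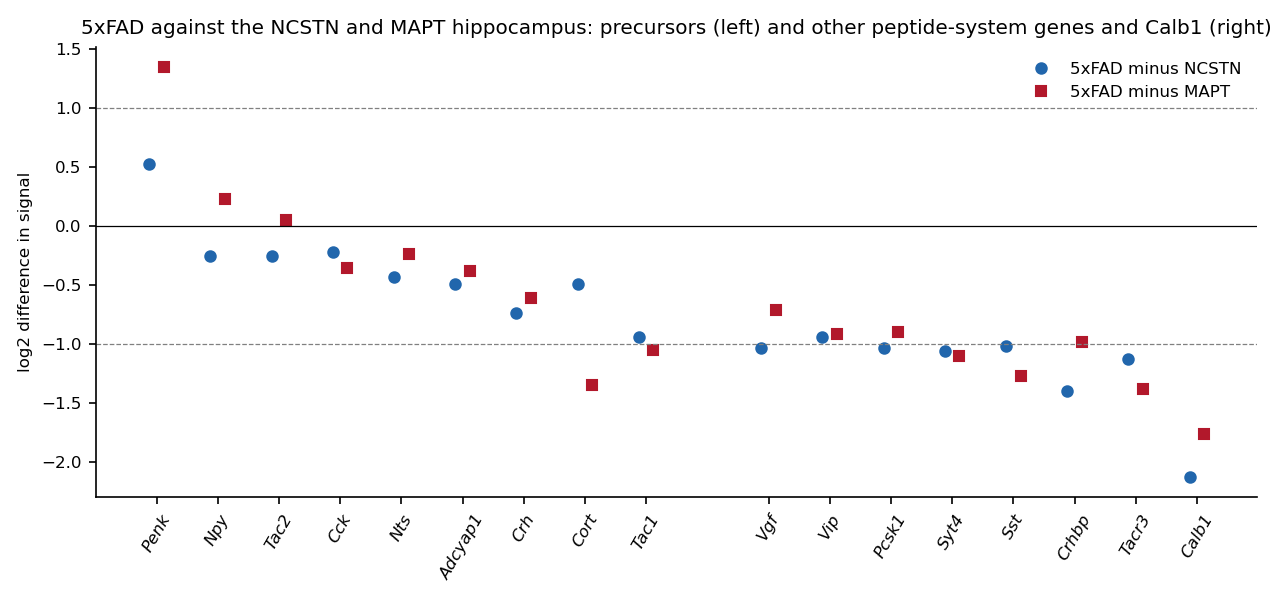
Log2 difference in signal (y axis) between the 5xFAD array and the NCSTN (circles) or MAPT array (squares) for the 9 measured precursors and, to the right, 8 other genes (x axis). The dashed lines mark 2-fold. Penk lies above 0 against both arrays, and Cck, Nts, Adcyap1, Crh, Cort, Tac1, and all 8 other genes lie below 0 against both. The 8 are picked from longer lists and do not stand for them. Genes of the same lists that were higher on the 5xFAD array, such as Nmb (1.55) and Ctsl (1.27), are not drawn.

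The companion genes Sst and Vip and other interneuron markers were also lower on the 5xFAD array. Sst read 14.74, 14.99, and 13.72 on the NCSTN, MAPT, and 5xFAD arrays, a difference of -1.14. Vip read 9.74, 9.72, and 8.80. All 17 measured interneuron markers were below 0, 4 of them at least 2-fold (Calb1, Nxph1, Sst, and Dlx5). Their median was -0.71, against -0.06 for measured genes. The background for this list and those below was 622 of 15595 measured genes at least 2-fold lower and 849 at least 2-fold higher. Calb1, which encodes a calcium-binding protein of interneurons and of granule cells, was lowest by -1.95.

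Of 14 processing enzymes and chaperones, 3 were above 0 and 11 below, with a median of -0.13. Of these, 1 was at least 2-fold higher on the 5xFAD array and 0 were 2-fold lower. Ctsl, a lysosomal protease that also cuts precursors, was higher by 1.27, and it is made by microglia too. Pcsk1, a prohormone convertase of the regulated pathway, read 8.38, 8.25, and 7.35, a difference of -0.97. Of 10 dense-core granule genes, 4 were above 0 and 6 below, and only Syt4 was 2-fold lower, at -1.08. Vgf, a granin-like precursor that activity induces, read 15.05, 14.73, and 14.02, a difference of -0.87. Pcsk1 and Vgf were thus both lower by nearly as much as Tac1.

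Of the receptors and binding proteins of the peptides, 24 were measured, 7 above 0 and 17 below. Tacr3, the receptor for the neurokinin B that Tac2 encodes, and Crhbp, which sequesters the Crh peptide, were at least 2-fold lower on the 5xFAD array, and 0 were 2-fold higher, against 9.43% of measured genes in either direction. Tacr3 read 6.48, 6.75, and 5.36. Crhbp read 10.28, 9.86, and 8.87. Oprk1, the dynorphin receptor, read 5.75, 5.49, and 4.70, and Npy1r, an Npy receptor, 10.41, 10.69, and 10.80, so that Npy1r did not share the direction. The somatostatin and cortistatin receptor Sstr4 read 7.31, 8.01, and 6.82, in the same order as Cort. Cckbr, the main cholecystokinin receptor of the brain, was read by 2 probes, at 10.78, 10.28, and 9.81 for the brighter and 4.70, 4.26, and 4.99 for the dimmer, which put the 5xFAD array at opposite ends.

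Lists of other cells moved on the 5xFAD array beside these values. All 11 measured microglial genes were above 0, 7 of them at least 2-fold, and their summed signal, over all 12 listed, was 16.80 against 14.48 on the NCSTN and 14.45 on the MAPT array. Of 15 immediate early genes, which neurons switch on when they fire, 9 were at least 2-fold lower and 14 below 0. Their median was -1.57. Of the 15595 measured genes, 849 were at least 2-fold higher and 622 at least 2-fold lower, with a median of -0.06. All 8 measured cortical excitatory neuron markers were below 0. Genes of neurons in general did not go that way as a list, with 0 of 10 at 2-fold in either direction and a median of -0.12. The part of microglial RNA, firing, or the dissected area in the lower precursor signals was not tested.

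The upstream bases of Tac1 and Cort are shown because both were lowest on the 5xFAD array, and those of Cck because it shares a motif with them. Many peptide genes carry cyclic AMP response elements, the binding letters of the activity-regulated factor CREB, near their start. The 250 bases before the start were taken from the RefSeq promoter table of GRCm38.p6, which held 8 of the 10 precursors. It had no entry for Penk or Crh. Searched on both strands were the full element TGACGTCA, its half-site TGACG, and the variant TGCGTCA, which contains the half-site on the other strand. Capitals mark the half-site and the variant, and each line runs 5′ to 3′ on the strand of the gene, at chr6:7554811-7555060 (plus strand) for Tac1, chr4:149126764-149127013 (minus) for Cort, and chr9:121495695-121495944 (minus) for Cck.
Tac1: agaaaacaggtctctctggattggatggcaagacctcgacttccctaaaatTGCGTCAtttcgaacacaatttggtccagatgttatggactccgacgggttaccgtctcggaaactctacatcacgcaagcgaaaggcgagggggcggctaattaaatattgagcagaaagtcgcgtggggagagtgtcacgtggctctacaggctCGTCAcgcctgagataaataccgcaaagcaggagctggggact
Cort: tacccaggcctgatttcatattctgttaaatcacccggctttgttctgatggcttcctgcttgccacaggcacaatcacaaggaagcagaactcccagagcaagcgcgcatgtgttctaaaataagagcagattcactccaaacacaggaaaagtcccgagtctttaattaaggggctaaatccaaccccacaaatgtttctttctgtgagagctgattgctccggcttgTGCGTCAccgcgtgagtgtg
Cck: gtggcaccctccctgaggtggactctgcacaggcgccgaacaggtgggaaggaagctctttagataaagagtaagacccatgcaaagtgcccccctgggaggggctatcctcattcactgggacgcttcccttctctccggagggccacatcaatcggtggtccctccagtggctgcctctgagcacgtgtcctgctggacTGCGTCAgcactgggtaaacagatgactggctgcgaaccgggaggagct

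The variant TGCGTCA began 199 bases before the start of Tac1, 20 before that of Cort, and 49 before that of Cck. It was present in 3 of the 8 precursors and in 1.75% of all 32851 promoter windows of that length. Tac1 held a second half-site 43 bases before its start. The half-site was present in 5 of the 8 precursors, Nts and Adcyap1 being the others, and in 17.8% of all windows. The full element was in 0 of 8 and in 1.55% of all windows. A precursor counted once if any of its windows matched (Pdyn and Adcyap1 had 2 each), while the shares count every window. The AP-1 motif TGANTCA and, on the gene's strand only, the TATA box TATAAA were searched too. Each was in 1 of 8 precursors, against 6.75% and 7.59% of all windows. A match of letters is a description and not a binding site.

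In the ICR hippocampus, 2 of 9 measured precursors, Tac2 and Adcyap1, were at least 2-fold between the highest and the lowest array, against 9.44% of the 14267 measured genes and 21.3% of all genes. The median range of the precursors was 0.69, and that of measured genes 0.34. Both were highest on the Aβ 5 µM array, and without that array 0 precursors reached 2-fold. Without the scopolamine array 1 did.

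Tac2 was set apart by a single array. It read 11.86 on the Aβ 5 µM array, and 10.06, 9.90, 10.57, and 9.75 on the Aβ 10 µM, streptozotocin 2.5 mg/kg, streptozotocin 3 mg/kg, and scopolamine arrays, a range of 2.12, or 4.33-fold. The Aβ 5 µM array stood 3.46-fold above the mean of the other 4 and 1.29 on the log2 scale above the next one. The Aβ 10 µM array, with the higher dose, was in the middle of the rest. Without the Aβ 5 µM array the range of Tac2 was 0.82.

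Several markers of the medial habenula, a nucleus beside the hippocampus whose cholinergic neurons make neurokinin B, were highest on the same array. Gpr151, a receptor found mostly in habenular neurons, read 6.02 there and was not well above background on the other 4 ICR arrays. By the rule given for Pdyn, Gpr151 was 2.96-fold less on those. Pou4f1, a transcription factor of habenular neurons, read 8.08 and was not well above background on the other 4. By the same rule Pou4f1 was 12.4-fold higher on the Aβ 5 µM array. Neither fold is a firm lower bound. Chrnb4, a nicotinic receptor subunit, read 8.03 against 5.88 to 6.79. Slc5a7, the choline transporter, read 5.47 against 2.23 to 4.30. Chrna3 and Chrnb3, further nicotinic subunits, did not reach that mark on any ICR array, at 3.78 and 3.84 on the Aβ 5 µM array. Nr4a2 and Kcnip1 did not stand out, at 11.58 against 11.37 to 11.88 and at 5.17 against 5.00 to 5.09. Of the 9 listed markers other than Tac2, 7 were well above background on the Aβ 5 µM array and 4 or 5 on the others, and the mean of their log2 signals was 7.03 against 5.24 to 5.44. Their summed signal, in which the broadly expressed Lmo3 weighs most, was 12.62 against 12.42 to 12.66. Other lists of neighbouring tissue were slightly higher on this array too. The summed signal of 9 thalamic markers was 14.01 against 13.78 to 13.97 on the other ICR arrays. That of 11 hypothalamic markers was 8.95 against 8.23 to 8.85, but the mean of their log2 signals was highest on the scopolamine array, 4.58 against 4.45. How much of the Tac2 signal came from habenular or other neighbouring tissue was not tested.

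**Figure D4:**
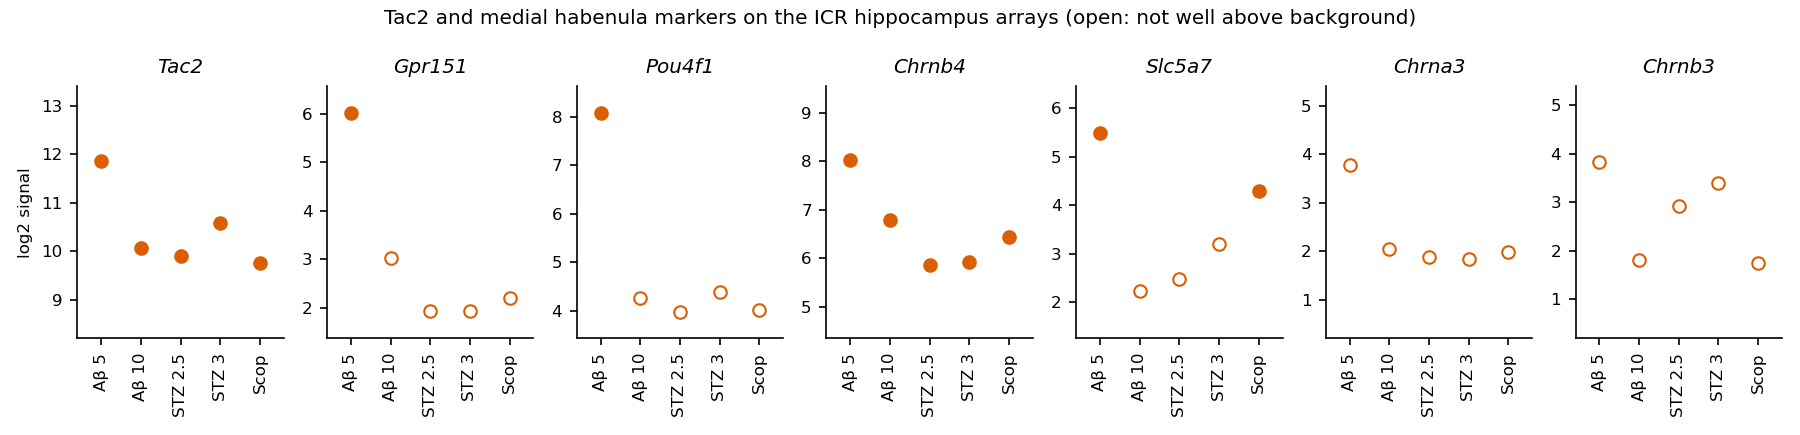
Log2 signal (y axis) of Tac2 and 6 of the 9 listed medial habenula markers (Lmo3, Nr4a2, and Kcnip1 are not drawn) on the 5 ICR hippocampus arrays (x axis), with doses in µM for Aβ and mg/kg for streptozotocin (STZ), and scopolamine as Scop. Each panel spans 5.2 log2 units at its own level, filled points were well above background and open points were not, and the Aβ 5 µM array is the highest in every panel.

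Adcyap1 was graded over the arrays. It read 9.46 and 9.17 on the Aβ arrays, 8.82 and 8.56 on the streptozotocin arrays, and 8.35 on the scopolamine array, a range of 1.12, or 2.17-fold. The highest pair of arrays was 0.29 and the lowest pair 0.21 apart, against a spot error of 0.20. Without the Aβ 5 µM array the range was 0.83. Its receptor gene, Adcyap1r1, read 11.23, 11.08, 11.07, 11.37, and 11.30 and did not follow it.

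The upstream bases of both genes are shown as the pair with the widest range in this set. That of Tac2 (chr10:127724228-127724477, plus strand) held neither the half-site nor the variant. That of the more upstream of 2 starts of Adcyap1 (chr17:93198767-93199016, plus strand) held a half-site 91 bases before the start, in capitals.
Tac2: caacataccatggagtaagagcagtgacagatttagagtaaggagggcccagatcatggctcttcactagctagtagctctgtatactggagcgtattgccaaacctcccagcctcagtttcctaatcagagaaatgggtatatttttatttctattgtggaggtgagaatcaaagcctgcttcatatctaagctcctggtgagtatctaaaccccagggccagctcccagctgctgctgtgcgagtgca
Adcyap1: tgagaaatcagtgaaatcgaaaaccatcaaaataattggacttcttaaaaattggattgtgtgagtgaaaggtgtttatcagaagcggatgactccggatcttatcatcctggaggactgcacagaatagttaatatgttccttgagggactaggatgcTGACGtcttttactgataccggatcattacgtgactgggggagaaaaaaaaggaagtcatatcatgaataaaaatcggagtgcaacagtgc

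When the Aβ arrays were set against the streptozotocin arrays, 0 of 9 precursors differed 2-fold, against 3.11% of measured and 7.13% of all genes. Adcyap1 was higher on the Aβ arrays by 0.63, Tac1 by 0.51, Cort by 0.47, and Nts by 0.34, all without overlap, and 50.4% of measured genes did not overlap either. Tac1 read 10.80 and 10.50 against 9.91 and 10.37. Cort read 10.87 and 11.28 against 10.45 and 10.75. Without the streptozotocin 2.5 mg/kg array Tac1 differed by 0.28, without the Aβ 10 µM array Cort by 0.27, and without the Aβ 5 µM array Nts by 0.06. The difference of Tac2, 0.73, overlapped, and it was -0.18 without the Aβ 5 µM array. The median over the precursors was 0.34 and over measured genes -0.04. No doses were matched between the agents.

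Crh had its highest ICR value, 8.81, on the streptozotocin 2.5 mg/kg array and its lowest, 8.12, on the Aβ 5 µM array. The cortical neuron marker Tbr1 was highest on the streptozotocin 2.5 mg/kg array as well, at 10.10, against 9.15 to 9.73 on the other ICR arrays. The summed signal of all 9 listed cortical markers was 13.04 on that array and 12.66 to 12.73 on the Aβ and scopolamine arrays. It was nearly as high, 12.98, on the streptozotocin 3 mg/kg array, where Crh read 8.26. Tac1 and Cort, both higher in the cortex than in the hippocampus, were lowest on the streptozotocin 2.5 mg/kg array. Npy and Adcyap1, also higher in the cortex, lay in the middle of the 5 arrays there, at 11.26 and 8.82. The part of cortical tissue in these values was not tested.

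Among the receptors and binding proteins, 2 of 22 measured were at least 2-fold between the ICR arrays, a share of 9.09% and near the 9.44% of measured genes. Crhr2, a receptor for the Crh family of peptides, read 9.64 and 9.88 on the Aβ, 7.88 and 8.15 on the streptozotocin, and 10.16 on the scopolamine array. Sstr4 read 6.55, 7.35, 7.72, 7.61, and 6.84. The choroid plexus expresses Crhr2, and its markers moved the same way: all 9 measured were at least 2-fold higher on the Aβ than on the streptozotocin arrays, with summed signals of 17.57 and 17.65 against 11.86 and 12.53, and 17.58 on the scopolamine array. The part of choroid plexus in the Crhr2 values, and in those of the precursors that were higher on the Aβ arrays, was not tested. Processing enzymes and granule genes were level, with 0 of 14 and 0 of 10 at 2-fold. Of the fixed companions, Sst ranged from 13.75 to 14.11, Npy1r from 11.12 to 11.33, Crhbp from 9.49 to 10.28, Pcsk1 from 8.07 to 8.45, and Vgf from 14.48 to 14.63.

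**Figure D5:**
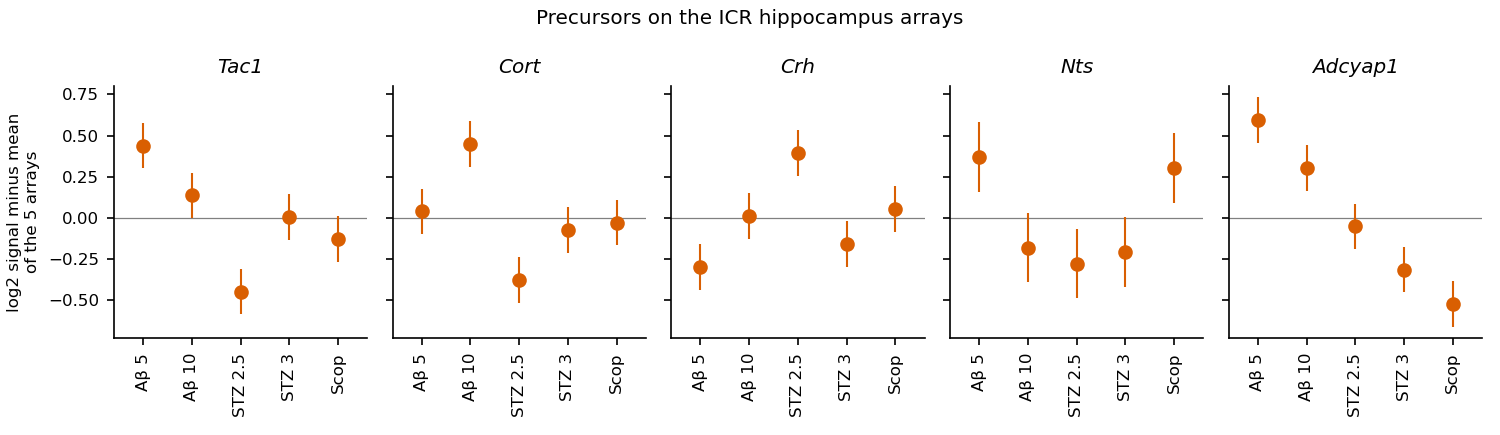
Log2 signal of 5 precursors minus the mean of the 5 ICR hippocampus arrays (y axis), by array (x axis), with doses in µM for Aβ and mg/kg for streptozotocin (STZ). Bars are the largest spot error of the probe and not a spread between animals, and Tac1, Cort, and Adcyap1 are higher on both Aβ arrays than on both streptozotocin arrays.

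Scopolamine was next compared with the other 4 ICR arrays. None of the 9 precursors differed 2-fold, against 1.51% of measured and 5.48% of all genes. Tac2 was lower by -0.85, Adcyap1 by -0.66, and Npy by -0.24, each below all 4 other arrays. Without the Aβ 5 µM array the difference of Tac2 was -0.43. This made 3 of 9 outside the span of the others, and 37.0% of measured genes were outside it. Nts was higher by 0.38 but not above the Aβ 5 µM array. All 15 immediate early genes were above 0, with a median of 0.32 against -0.002 for measured genes. The mean of their log2 signals was 9.91 on the scopolamine array and higher still, 9.99, on the streptozotocin 2.5 mg/kg array. On the other ICR arrays it was 9.24 to 9.47. All 10 oligodendrocyte and all 9 measured choroid plexus genes were above 0 too, while all 8 measured cortical excitatory neuron markers were below it.

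Across the ages of the cortex, the measured receptors and binding proteins had a median range of 0.58. Oprk1, the dynorphin receptor, read 6.21, 7.75, 7.64, and 7.13 in order of age. Npy2r, an Npy receptor, read 5.90, 5.46, 5.98, and 6.65 on its brighter probe, which was well above background on all 4 arrays. Ntsr1, the neurotensin receptor, read 8.23, 8.53, 7.86, and 9.02 on its brighter probe, and its dimmer probe was not well above background on any of the 12. For Cckbr the brighter probe ranged over 0.37 and the dimmer over 1.72, so a 2-fold difference of this receptor rests on the dimmer probe. In all, 4 of 23 measured receptors and binding proteins reached 2-fold on the mean of their probes, a share of 17.4% against 6.22% of measured genes, and 0 of 14 processing and 0 of 10 granule genes did.

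The likeness of other genes to the 5 precursors that reached 2-fold in a set was measured as the root mean square difference of log2 signals over the 12 arrays, each set centred on its own mean, among 14031 genes well above background on all of them. The nearest to Penk were Pik3r6 (0.13), Axl (0.14), and Ccnf (0.14). Those nearest to Tac1 were Rwdd2a, Kcnk2, and Acads (0.17 each). Those nearest to Cort were Tbxa2r (0.17), Unc13a (0.19), and Dnajc14 (0.19), and to Adcyap1 Arhgap29 (0.15), Wfdc1 (0.15), and Eng (0.16). Tac2 had Mrgprf (0.23), Ccdc42 (0.28), and Nppa (0.29), and all 3 were highest on the Aβ 5 µM array too. None of the 10 precursors was among them.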

How the data were processed

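Gene expression was measured with 12 one-colour arrays, 1 for each model. The authors deposited scanner intensities spot by spot (processed signal, foreground and background medians, flags), not normalized between arrays, and a matrix of processed intensities, used only as an alternative. The labels name the dye Cy5, while the files hold green-channel columns. Processed signals were put on the log2 scale, outlier spots (110 to 234 an array) were dropped, repeated spots were averaged, and 39429 probes were quantile normalized over 12 arrays. The methods' filter, 1.4-fold over the local background, was an alternative, so that every precursor kept a value. Accessions named 69.8% of probes through the gene table of GRCm38.p6, and probes of a gene were averaged. Gene models that overlap Cck (Gm38661), Crh (Gm42189), and Adcyap1 (Gm32465) could share signal. The arrays' slides and scans are not given in the sources used here.

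The members and gene lists were chosen with earlier results of these data known. Every precursor is named with its values. Of the other lists, genes at least 2-fold over a set were counted and at most 3 a list and set named, with Sst, Npy1r, Cckbr, Oprk1, Crhbp, Pcsk1, and Vgf whatever their values. Marker genes such as Vip, Calb1, Drd1, Drd2, Tbr1, Syt4, Ctsl, and those of the habenula, and the receptors Oprd1, Oprm1, and Adcyap1r1 were named after their values were seen. Comparisons are descriptive. With 1 array a model, their number limits the precision. Other scalings, thresholds, probe rules, and each array left out were tried. The quantile step differed from that of limma 3.58.1 by at most 4.62e-14, and the counting was tested on simulated data. Python 3.11.15 with pandas 2.3.3, numpy 2.4.6, and R 4.3.3 were used. Some details of a line and of a marker list are not reported here.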

Additional observations from a re-analysis of the deposited data

How the results depend on the processing

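The counts of precursors at 2-fold were stable under most scalings and probe rules tried. Within the hippocampus they were not stable when 1 array was left out or the threshold was moved. Only the 6 called differences between cortex and hippocampus could change sign, and none of them did. A range has no sign, and no precursor was called in the other differences. At a 1.5-fold threshold the counts were 2 in the cortex (main count 0) and 6 in the ICR hippocampus (2). They were 4 for 5xFAD against NCSTN and MAPT (0). For Aβ against streptozotocin (0) and for scopolamine against the others (0) they were 2 each. At 3-fold they were 0 in the transgenic (3) and 1 in the ICR hippocampus (2). The shares of all genes past 1.5-fold or 3-fold were not computed, so these counts cannot be set beside those of genes at large. With normexp background correction, run on median signals because the files hold no mean signal, Adcyap1 fell below 2-fold in the ICR hippocampus, which left 1. With the deposited matrix, Tac2 passed 2-fold on the scopolamine array, a count of 1, and Tac1 fell short over the transgenic arrays. That matrix put the median of all genes at -0.17 (Aβ against streptozotocin) and -0.21 (scopolamine), relative to which Tac2 stayed under 2-fold, and scaling to the 75th percentile put it at -0.12 (5xFAD). With each array left out in turn, the counts ran from 0 to 3 (transgenic), 0 to 2 (ICR), 0 to 3 (5xFAD), 0 to 1 (Aβ against streptozotocin), 0 to 1 (scopolamine), 5 to 6 (cortex against hippocampus), and stayed at 0 in both cortex comparisons. The 5xFAD and scopolamine arrays could not be left out of their own differences. Differences near 0 took the other sign for Nts (older against younger cortex, scaling to the 75th percentile), Npy (5xFAD), Cck, and Crh (scopolamine) under 1 or 2 of 7 settings, and for Cck (Aβ) under 1. With 1 array left out the sign changed for 6 of 9 precursors by age (Npy, Cck, Penk, Crh, Nts, Adcyap1) and 2 for 5xFAD (Npy, Tac2). It changed for 4 for Aβ against streptozotocin (Npy, Cck, Tac2, Crh) and 3 for scopolamine (Cck, Crh, Cort). Not all of these were near 0: for Aβ against streptozotocin, Tac2 went from 0.73 to -0.18. The causes were not tested. No paired analysis was possible because each model had 1 array.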

Other observations

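Of 45 other neuropeptide and peptide hormone precursors, 7 of 28 measured in the cortex, 10 of 33 in the transgenic hippocampus, and 5 of 27 in the ICR hippocampus were at least 2-fold between the highest and the lowest array. These shares were 25%, 30.3%, and 18.5%, against 6.22%, 13.7%, and 9.44% of measured genes. In the cortex the widest ranges belonged to Avp (vasopressin), at 4.94, 4.63, 6.77, and 5.60 in order of age, Sct (secretin), at 5.63, 5.24, 7.13, and 6.33, and Trh (thyrotropin-releasing hormone), at 6.34, 7.22, 7.29, and 7.74. Avp and Sct were highest on the 17-month array.

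In the transgenic hippocampus the widest were Trh, at 10.72 on the NCSTN array against 6.18 and 6.76, Npw (neuropeptide W), at 7.39, 6.62, and 5.20, and Nmb (neuromedin B), at 9.58, 9.86, and 11.27, so that Nmb, like Penk, was highest on the 5xFAD array. In the ICR hippocampus they were Nppa (atrial natriuretic peptide), at 7.31 on the Aβ 5 µM array against 5.25 to 5.45, Edn1 (endothelin), at 6.57, 6.89, 5.47, 6.39, and 4.83, and Oxt (oxytocin), at 7.34, 6.35, 6.15, 6.03, and 5.72. Each of these rests on single arrays, and no explanation was tested.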
